A study of Rattus norvegicus with 16 samples.

Results

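Cytochrome P450 genes were described in the normal distal colon of rats with and without the Pirc allele and with and without dextran sodium sulphate (DSS). Members were the genes whose rat symbol has the Cyp family, subfamily and gene pattern, each read from 1 array probe, the one with the highest mean processed signal over the 16 arrays. A probe was found for 67 such genes of 15159 named genes, and 41 of the 67 lay well above background on all arrays of at least 1 group. All 16 rats were (ACIxF344)F1 males of 97 days of age, 4 in each of 4 groups. The untreated wildtype rats were numbers 13, 17, 21 and 25, the DSS-treated wildtype rats numbers 14, 18, 22 and 26, the untreated Pirc/+ rats numbers 11, 15, 19 and 23 and the DSS-treated Pirc/+ rats numbers 12, 16, 20 and 24. Values are listed below in that order. Pirc is a mutant allele of the tumour suppressor Apc, carried in 1 copy in every cell, and wildtype rats lack it. DSS is a polymer that injures the colonic epithelium. It was given at 4% in the drinking water on days 40 to 47 and 54 to 61, so that tissue was taken 36 days after the last exposure. Untreated rats of both genotypes were sampled at the same age.

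P450s are heme enzymes that insert 1 atom of oxygen into lipids, hormones, vitamins, drugs and other foreign compounds. Microsomal members receive electrons from P450 oxidoreductase and cytochrome b5, and mitochondrial members from ferredoxin. In the gut they meet dietary and bacterial compounds, and many are controlled by ligand-activated receptors, such as the aryl hydrocarbon receptor for family 1 and the pregnane X and constitutive androstane receptors for families 2 and 3.

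Each value is the log2 processed signal of the probe minus the log2 of the 75th percentile of its array, so 0 is a spot at that percentile. Values of different probes were not set against each other. Between 71.1% and 80.3% of spots lay well above background on an array, and no array held a saturated spot. The nearest array by correlation belonged to the same group for 14 of the 16 rats. Untreated Pirc rat 23 and DSS-treated wildtype rat 26 lay nearest untreated wildtype rat 25. Both slides held 2 rats of every group, but each group occupied a single array column, so group and column cannot be told apart. All 15 markers of colonic absorptive epithelium were well above background on all 16 arrays.

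DSS treatment and the Pirc allele were compared in limma fits across all 30367 probes, and a gene was called where its Benjamini-Hochberg adjusted p was at most 0.05 and its change at least 2-fold. Over both genotypes, DSS-treated rats had 4 of the 67 P450 genes called higher (background 5% of all probes) and 2 called lower (background 0.988%). Within Pirc rats DSS was followed by 6 genes called higher (5.51%) and 7 called lower (1.95%). Within wildtype rats the counts were 2 higher (2.37%) and 1 lower (0.402%). In Pirc rats the genes called lower were 10.4% of the members and those called higher 8.96%. The median DSS change in Pirc rats was -0.11 on the log2 scale for the 67 members and 0.04 for all probes. The number of lower calls in Pirc rats, 7, changed with the rats in the fit, though Cyp2d2 kept its call whichever 1 rat was left out. The number dropped to 1 of the 67 without DSS-treated Pirc rat 20 and to 2 without untreated Pirc rat 11 or 15. It was 3 without DSS-treated Pirc rat 12 and with only the compared groups in the fit. The higher calls numbered 5 or 6 in each of these fits, so the total of 13 became 6, 7, 8, 9 and 9. With a normexp background correction they numbered 8, and the 6 calls over both genotypes dropped to 1.

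The Pirc allele itself was compared at each treatment. Over both treatments 2 members were called higher in Pirc rats (1.22%) and 2 lower (0.78%). Among DSS-treated rats the counts were 4 higher (3.1%) and 6 lower (2.37%), with a median of -0.31 for the members against -0.11 for all probes. Among untreated rats limma called none of the 67 (0% of all probes), the lowest adjusted p was 0.226, and 2 members had an unadjusted p under 0.05. The difference between the DSS effects of the 2 genotypes was called for none (0.0428% of all probes), with a lowest adjusted p of 0.0761 for Cyp1b1 and 12 members at an unadjusted p under 0.05. By adjusted p alone, 6 members were higher (10.2%) and 7 lower (6.99%) with DSS over both genotypes, and 3 were higher (9.26%) and 9 lower (8.27%) with the Pirc allele over both treatments. By the same rule 6 were higher (8.14%) and 8 lower (6.51%) with DSS in Pirc rats, and 5 were higher (9.47%) and 10 lower (8.76%) with the Pirc allele under DSS. The DSS effect in Pirc rats and the Pirc effect in DSS-treated rats share the DSS-treated Pirc rats, so they are not separate evidence. All 36 called values of single members had the same sign within each of the 2 slides. They were selected as called in these same rats, so this agreement is no separate support.

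**Figure D1:**
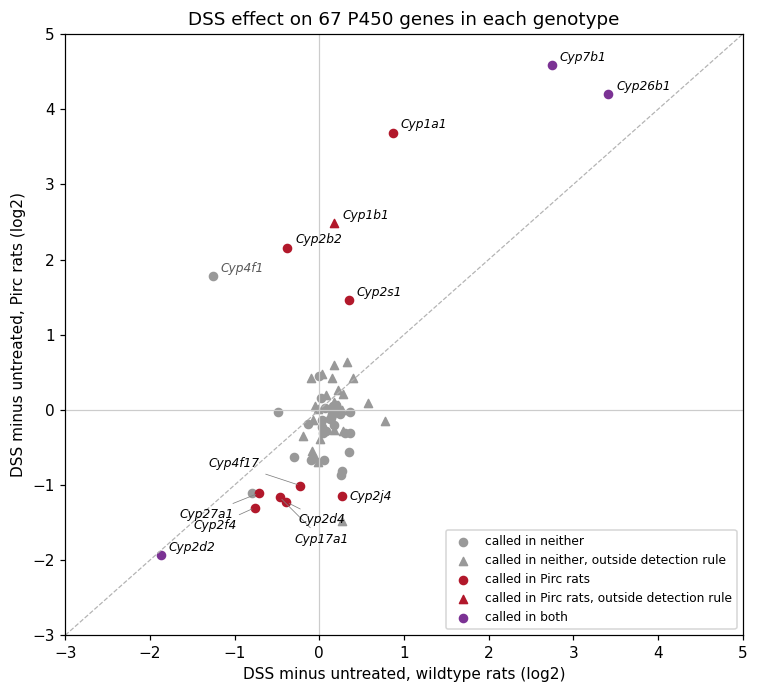
Log2 difference between DSS-treated and untreated rats in wildtype rats (x axis) and in Pirc rats (y axis) for 67 P450 genes, 4 rats a group, with the dashed line marking equal differences. Triangles are genes outside the detection rule. Cyp7b1, Cyp26b1 and Cyp2d2 were called in both genotypes, 10 further genes in Pirc rats, and Cyp4f1 lay on opposite sides of 0 without being called in either.

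Markers of other cell types differed between the same groups, and their values are given beside the P450 results. Of 9 measured markers of stratified epithelium and urothelium, 7 were higher with DSS over both genotypes by adjusted p (10.2% of all probes), with a median change of 3.66, while Upk2 and Ivl lay above background on no array. The log2 of the summed signal of that list ran from -1.96 to -1.47 in untreated wildtype rats, from -1.59 to 4.93 in DSS-treated wildtype rats, from -1.97 to -1.26 in untreated Pirc rats and from 3.63 to 6.03 in DSS-treated Pirc rats. DSS-treated rats of both genotypes thus lay mostly above untreated rats, and the lowest DSS-treated wildtype rat did not. All 7 fibroblast markers were also higher, with summed levels of 0.44 to 0.89, 1.35 to 3.84, 0.61 to 1.41 and 2.45 to 3.87 in the same order of groups. Of 10 leukocyte markers 6 were higher, with sums from -0.68 to -0.34, -0.32 to 0.51, -0.78 to -0.23 and 0.09 to 0.70. For both lists the untreated and DSS-treated sums did not overlap within either genotype. The 15 colonic epithelial markers had 2 higher and 1 lower, with sums from 9.50 to 9.81, 9.66 to 9.98, 9.17 to 9.65 and 9.05 to 9.66. For the Pirc effect among DSS-treated rats, 6 of these 15 were lower and none higher by adjusted p, where 8.76% of all probes were lower. In that comparison 4 of the 9 markers of stratified epithelium and urothelium were higher, with a median of 2.89, where 9.47% of all probes were higher. No fibroblast or leukocyte marker passed there. Goblet cell markers had 1 of 6 lower with DSS over both genotypes, smooth muscle markers 1 of 6 higher and 1 lower, and endothelial markers 2 of 4 higher. Of 5 hepatocyte markers none passed, and Ttr was above background on no array. Their sums ran from -2.12 to 0.72, 0.73 to 2.51, -2.37 to -1.21 and -4.04 to 1.29 in the same order of groups. Those of the wildtype groups did not overlap, and those of the Pirc groups did. The part of these cell types in the P450 results was not tested, and in bulk tissue fewer cells of a type cannot be told apart from less RNA per cell.

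The aryl hydrocarbon receptor induced P450s, Cyp1a1, Cyp1a2 and Cyp1b1, oxidise polycyclic aromatic compounds. Cyp1a1 and Cyp1b1 were called higher with DSS in Pirc rats, and Cyp1a2 was above background on no array. Cyp1a1 measured -9.16, -8.59, -6.93 and -8.76 in untreated wildtype rats, -8.80, -8.56, -8.96 and -3.66 in DSS-treated wildtype rats, -9.14, -9.42, -9.58 and -8.54 in untreated Pirc rats, and -5.08, -5.97, -5.95 and -4.93 in DSS-treated Pirc rats. The 4 DSS-treated Pirc rats lay above all untreated Pirc rats, whereas among DSS-treated wildtype rats the value of rat 26 was far above the other 3. The DSS difference in Pirc rats was 3.69 (SE 0.91, adjusted p = 0.0143). No untreated Pirc array was above background, so it is given as at least 10.5-fold over the lowest signal above background on each array. That bound depends on the floor chosen. In wildtype rats the DSS difference was 0.87 (SE 0.91, adjusted p = 0.735) with rat 26 and -0.41 without it. The Pirc effect in DSS-treated rats was 2.01 (SE 0.91, adjusted p = 0.147), which did not pass. Without rat 26 that effect was at least 4.80-fold over the same floor, since the 3 wildtype arrays left were not above background. It was called in that fit, as were the Pirc effect over both treatments and the difference between the DSS effects. Rat 26 was left out for its own Cyp1a1 value, so those calls follow from the choice and are no support. The probe passed the detection rule only through the DSS-treated Pirc rats. The DSS effect over both genotypes was 2.28, and 1.64 without rat 26. Both DSS calls of Cyp1a1 were lost with normexp correction, at 0.62 (adjusted p = 0.124) in Pirc rats and 0.44 (adjusted p = 0.113) over both genotypes, and with a common signal floor, which raises dim signals to 1 shared value, at 1.83 (adjusted p = 0.0872) and 1.32 (adjusted p = 0.0749).

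For Cyp1b1, which hydroxylates oestrogens and aromatic hydrocarbons, the values were -8.43, -8.68, -9.02 and -8.50 in untreated wildtype rats, -8.73, -7.87, -8.78 and -8.54 in DSS-treated wildtype rats, -8.40, -8.15, -9.58 and -8.24 in untreated Pirc rats, and -5.86, -6.05, -6.35 and -6.20 in DSS-treated Pirc rats. All 4 DSS-treated Pirc rats were above every other rat, and 3 of those 4 arrays, but none of the other 12, were well above background. The probe therefore falls just outside the detection rule. Cyp1b1 was higher by 2.48 with DSS in Pirc rats (adjusted p = 0.000135) and by 2.37 in Pirc than in wildtype rats under DSS (adjusted p = 0.000362). Both differences are set against signals not above background, so their size is uncertain. In wildtype rats the DSS difference was 0.18 (SE 0.29, adjusted p = 0.817). The difference between those DSS effects, 2.30 (SE 0.41, adjusted p = 0.0761), did not pass. It passed with the slide as a block (adjusted p = 0.0433), with slide and array row as blocks (0.0226) and after quantile normalization (2.11, 0.0191). It also passed without untreated Pirc rat 19 (1.98, 0.0309) and without DSS-treated wildtype rat 18 (2.51, 0.0471), but in no other fit that left out 1 rat. Normexp correction, median scaling, flagged spots kept and averaged probes did not give a call. With the common floor it was 1.20 (adjusted p = 0.000502). That floor set the other 12 arrays to 1 shared value, which removed their spread, so that call is no support. With normexp correction the DSS change in Pirc rats was 0.26 (adjusted p = 0.0124) and the Pirc effect under DSS 0.27, both under the 2-fold minimum. Of 4 other measured aryl hydrocarbon receptor targets, Aldh3a1, an aldehyde dehydrogenase, and Nqo1, a quinone reductase, were higher with DSS in Pirc rats (8.14% of all probes by adjusted p alone), by 2.65 (adjusted p = 0.00566) and 1.29 (adjusted p = 0.0106), and Ugt1a6 and Gsta2 did not pass. In rat 26 Aldh3a1 was -3.58 and Nqo1 -1.02, where the other 3 DSS-treated wildtype rats had -3.02, -2.87 and -0.89 for Aldh3a1 and -1.99, -2.002 and -1.01 for Nqo1.

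The window before the Cyp1b1 start site is shown because GCGTG, the core of the element bound by the aryl hydrocarbon receptor, occurs there on both strands. Windows here are the 250 bases before the RefSeq start of a gene in build GRCr8, given 5′ to 3′ along the gene, and 53 of the 67 members, 20 of the 24 described rat by rat, had one. In capitals are GCGTG and its reverse complement, and the window lies at chr6:21094315-21094564 on the plus strand.
Cyp1b1: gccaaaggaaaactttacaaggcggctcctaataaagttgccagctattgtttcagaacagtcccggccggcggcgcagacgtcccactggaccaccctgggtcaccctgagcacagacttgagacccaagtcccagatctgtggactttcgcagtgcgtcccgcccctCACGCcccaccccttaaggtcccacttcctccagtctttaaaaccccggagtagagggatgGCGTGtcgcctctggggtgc
The matches begin 81 and 20 bases before the start. GCGTG on either strand was in 25.9% of all 33469 promoter windows of this length and in 22.6% of the 53 member windows, shares that lie close together. It was in the windows of Cyp1b1, Cyp26b1, Cyp2b2 and Cyp4f1, called higher, and of Cyp4x1, called lower. The uncalled Cyp2t1, Cyp2r1, Cyp26a1, Cyp4f5, Cyp4f40, Cyp4f6 and Cyp20a1 held it too. AGGTCA, the half-site of nuclear receptors, was also searched on both strands and was in 14.1% of all windows and in 35.8% of the member windows, 19 of 53. Of the called members those of Cyp2s1 and Cyp27a1 held it, and several of the 19 are paralogs, such as 3 genes of subfamily 2B and 3 of subfamily 2C.

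**Figure D2:**
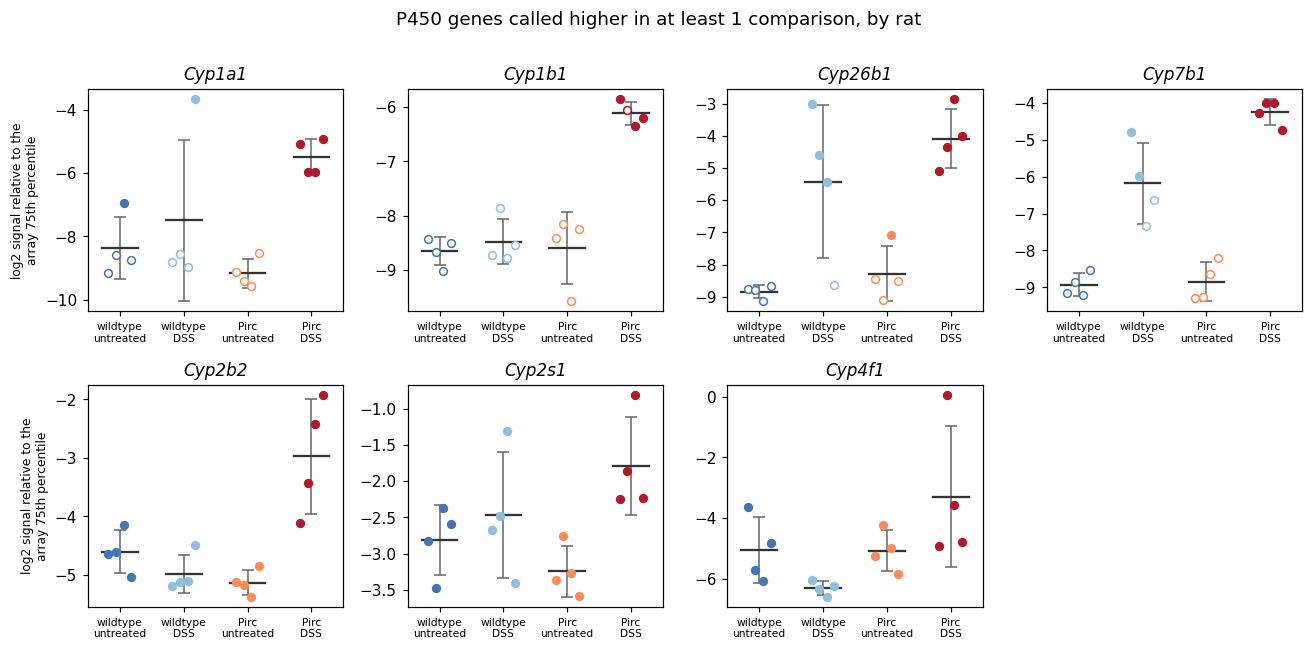
Log2 signal relative to the array 75th percentile (y axis) in each of the 4 rats of the 4 groups (x axis) for the 7 P450 genes called higher in at least 1 comparison. Bars are group means with SD, and open points are arrays on which the probe was not well above background. DSS-treated Pirc rats lay highest for Cyp1b1, Cyp7b1 and Cyp2b2, and DSS-treated wildtype rat 26, at -3.66 for Cyp1a1, lay apart from the other 3 of its group.

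Cyp26a1 and Cyp26b1 degrade retinoic acid, the vitamin A product that instructs epithelial differentiation. Cyp26b1 was called higher with DSS in both genotypes, and Cyp26a1, above background on all arrays, was not called in any of the 7 comparisons. The Cyp26b1 probe passed the detection rule only through the DSS-treated Pirc rats. The Cyp26b1 values were -8.76, -8.80, -9.11 and -8.67 in untreated wildtype rats, -2.997, -4.60, -5.44 and -8.64 in DSS-treated wildtype rats, -8.44, -9.09, -7.07 and -8.52 in untreated Pirc rats, and -5.10, -4.35, -2.87 and -4.01 in DSS-treated Pirc rats. Every DSS-treated Pirc rat was above every untreated rat, and so were 3 of the 4 DSS-treated wildtype rats, the exception being rat 26 at -8.64. The DSS difference was 3.81 (SE 0.62, adjusted p = 0.00062) over both genotypes, 4.20 (SE 0.87, adjusted p = 0.00494) in Pirc rats and 3.41 in wildtype rats (adjusted p = 0.0426). No bound is set for wildtype rats, where 3 of the 4 DSS-treated arrays and no untreated array were above background. The wildtype call held in 5 of the 16 fits that each left out 1 rat, with changes of 2.61 to 3.47 in the 11 that lost it, which were those without rats 11, 15, 23, 24, 13, 17, 21, 25, 14, 18 and 22. With normexp correction the change over both genotypes was 0.98 (adjusted p = 0.00745), under the 2-fold minimum, the call in Pirc rats held at 1.11, and the wildtype call was lost at 0.85 (adjusted p = 0.161). The wildtype call was also lost with the common floor, at 2.22 (adjusted p = 0.111), after quantile normalization and with only the compared groups in the fit. No difference between the DSS effects of the 2 genotypes was detected (0.79, 95% interval -1.85 to 3.42, adjusted p = 0.878).

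Genes that make, bind and store retinoic acid were read from a list of 13. With DSS over both genotypes 5 were higher (10.2% of all probes) and 1 lower (6.99%) by adjusted p. Crabp2, a carrier of retinoic acid, was higher by 5.67 (adjusted p = 0.000167) and Aldh1a3, which makes retinoic acid, by 4.64 (adjusted p = 8.89e-06). Aldh1a2, another such enzyme, was higher by 2.61 (adjusted p = 0.000481). Aldh1a1, a further enzyme of that step, had a change of -2.85 (adjusted p = 0.00114). For rat 26, Crabp2 was -4.97, against -2.88, -1.03 and 2.45 in the other DSS-treated wildtype rats, so the rat with untreated-like Cyp26b1 also had the lowest Crabp2 of its group. The Cyp26b1 window at chr4:118616177-118616426, minus strand, is shown because it holds both GCGTG and the AP-1 site TGACTCA, in capitals.
Cyp26b1: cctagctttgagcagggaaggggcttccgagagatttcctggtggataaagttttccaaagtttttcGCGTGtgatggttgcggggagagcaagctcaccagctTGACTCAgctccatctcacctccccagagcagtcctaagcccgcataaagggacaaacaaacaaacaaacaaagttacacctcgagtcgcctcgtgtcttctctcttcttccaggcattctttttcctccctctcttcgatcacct
TGACTCA began 146 bases before the start. It was in 4.05% of all windows and in 3.77% of the member windows, those of Cyp26b1 and Cyp3a9.

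Of the bile acid and oxysterol P450s, Cyp7b1 hydroxylates oxysterols, Cyp27a1 is a mitochondrial sterol hydroxylase, and Cyp7a1, Cyp8b1 and Cyp39a1 act on bile acid precursors. Cyp7b1 was called higher and Cyp27a1 called lower with DSS in Pirc rats, while Cyp8b1 was not called and Cyp7a1 and Cyp39a1 were above background on no array. Cyp7b1 values were -9.15, -8.84, -9.20 and -8.53 in untreated wildtype rats, -4.78, -5.99, -7.34 and -6.62 in DSS-treated wildtype rats, -9.29, -9.26, -8.64 and -8.20 in untreated Pirc rats, and -4.27, -4.005, -4.02 and -4.75 in DSS-treated Pirc rats. Untreated and DSS-treated rats did not overlap in either genotype, and the DSS-treated Pirc rats were all above the DSS-treated wildtype rats. Cyp7b1 was at least 20.3-fold higher with DSS in Pirc rats (adjusted p = 5.29e-05), over the lowest signal above background on each array. In wildtype rats the fitted difference was 2.74 (adjusted p = 0.00402). No bound is set there, because 2 of the 4 DSS-treated arrays and no untreated array were above background. Under DSS it was 3.79-fold higher in Pirc than in wildtype rats (1.92, SE 0.42, adjusted p = 0.00782). The Pirc call over both treatments, at 1.002, held in 6 of 16 fits that left out 1 rat and had 0.81 to 1.02 in the 10 that lost it (those without rats 19, 23, 12, 16, 20, 13, 17, 21, 22 and 26). With normexp correction the Cyp7b1 change over both genotypes was 0.72 (adjusted p = 5.87e-05) and that in Pirc rats 1.04, the latter still called. The wildtype call was lost with normexp, at 0.41 (adjusted p = 0.0508), and with the common floor, at 1.13 (adjusted p = 0.141). The call under DSS was lost with normexp, at 0.65, and with only the compared groups in the fit, and that over both treatments was lost with normexp, the common floor, median scaling and flagged spots kept. Cyp7b1 and Cyp1a1, each above background on 6 arrays, were the members just inside the detection rule, and Cyp2j10 and Cyp1b1 lay just outside it. Like Cyp1a1, Cyp7b1 passed that rule only through the DSS-treated Pirc rats.

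In Cyp27a1 the readings were -0.95, -0.62, -0.26 and -0.73 in untreated wildtype rats, -1.75, -1.71, -1.14 and -0.83 in DSS-treated wildtype rats, -1.004, -1.30, -1.24 and -1.62 in untreated Pirc rats, and -2.66, -1.77, -3.32 and -1.87 in DSS-treated Pirc rats. The DSS-treated Pirc rats were below all other rats, the closest values being -1.77 in rat 16 and -1.75 in wildtype rat 14. Cyp27a1 fell with DSS in Pirc rats (-1.11, SE 0.31, adjusted p = 0.0282) and was lower in Pirc than in wildtype rats under DSS (-1.05, SE 0.31, adjusted p = 0.0321). The first call was lost without rat 11, 15, 19, 12 or 20, with changes of -1.11 to -0.81, and the second without rat 12, 20, 22 or 26, with -0.97 to -0.74. With normexp correction both changes, -0.96 and -0.89, were under the 2-fold minimum, although the probe was above background on all 16 arrays.

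Steroid hormone P450s numbered 6, of which 4 passed the detection rule. Cyp17a1, a hydroxylase of androgen synthesis, was the one called, and Cyp11a1, Cyp21a1 and Cyp11b3 were not. Its values were -1.45, -0.83, -0.47 and -0.92 in untreated wildtype rats, -1.18, -1.30, -1.12 and -1.94 in DSS-treated wildtype rats, -0.31, -0.74, -1.36 and -1.02 in untreated Pirc rats, and -2.15, -1.55, -2.94 and -1.44 in DSS-treated Pirc rats. All DSS-treated Pirc rats were below all untreated Pirc rats, and the 2 wildtype groups overlapped. Cyp17a1 fell with DSS in Pirc rats (-1.16, SE 0.33, adjusted p = 0.0282), a call lost without rat 11, 15, 12 or 20, with changes of -1.12 to -0.86. Cyp11b1 was above background on no array.

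Among the other family 2 members, Cyp2b2, a phenobarbital-inducible enzyme of the liver, and Cyp2s1, an extrahepatic enzyme of epithelia, were called higher with DSS in Pirc rats. Cyp2b2 measured -4.64, -4.61, -4.14 and -5.04 in untreated wildtype rats, -5.19, -5.13, -5.11 and -4.50 in DSS-treated wildtype rats, -5.13, -5.18, -5.37 and -4.84 in untreated Pirc rats, and -4.11, -3.43, -2.42 and -1.92 in DSS-treated Pirc rats. The DSS-treated Pirc rats were above all other rats, the closest values being -4.11 in rat 12 and -4.14 in untreated wildtype rat 21, and DSS-treated wildtype rat 26 stood above the other 3 of its group. The change with DSS in Pirc rats was 4.46-fold (2.16, SE 0.37, adjusted p = 0.00144), the Pirc effect under DSS 4.03-fold (2.01, SE 0.37, adjusted p = 0.00338) and the DSS difference in wildtype rats -0.38 (SE 0.37, adjusted p = 0.707). The second Cyp2b2 probe had 0.93 (adjusted p = 0.0102) with DSS in Pirc rats, in the same direction and under the 2-fold minimum. The difference between the DSS effects was 2.53 (adjusted p = 0.116), and 2.91 (adjusted p = 0.0117) without DSS-treated Pirc rat 12. Rat 12 had the lowest value of its group, so leaving it out raises the difference, and that call is no support. In no other fit that left out 1 rat was the difference called.

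Cyp2s1 had -2.83, -3.47, -2.36 and -2.59 in untreated wildtype rats, -2.68, -2.48, -1.31 and -3.41 in DSS-treated wildtype rats, -3.36, -2.75, -3.27 and -3.58 in untreated Pirc rats, and -2.25, -1.85, -0.80 and -2.23 in DSS-treated Pirc rats. DSS-treated Pirc rats were above untreated Pirc rats, and the wildtype groups overlapped. The DSS change in Pirc rats was 1.46 (SE 0.41, adjusted p = 0.0282), lost without rat 11, 19, 23 or 20, with changes of 1.13 to 1.45. The other 2 probes of Cyp2s1 gave 0.43 (adjusted p = 0.303) and 0.32 (adjusted p = 0.333), so the call rests on 1 of 3 probes and was lost when the probes were averaged.

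The Cyp2d genes, whose products metabolise many drugs in the liver, lie side by side on chromosome 7 in RefSeq, in the order Cyp2d4, Cyp2d5, Cyp2d1, Cyp2d3 and Cyp2d2. All 5 passed the detection rule, and with DSS in Pirc rats 2 of them, Cyp2d2 and Cyp2d4, were called lower, with changes over the 5 from -1.94 to -0.11. Cyp2d2 values were -5.88, -5.90, -5.63 and -5.53 in untreated wildtype rats, -8.59, -7.99, -7.51 and -6.33 in DSS-treated wildtype rats, -5.34, -5.22, -4.88 and -5.30 in untreated Pirc rats, and -6.89, -8.21, -7.48 and -5.90 in DSS-treated Pirc rats. In each genotype all DSS-treated rats were below all untreated rats, and both untreated groups were above background on all arrays while 1 DSS-treated wildtype and 2 DSS-treated Pirc arrays were. Cyp2d2 fell 3.74-fold with DSS over both genotypes (-1.90, SE 0.32, adjusted p = 0.000896), by nearly the same in Pirc rats (-1.94, SE 0.46, adjusted p = 0.0107) as in wildtype rats (-1.87, SE 0.46, adjusted p = 0.0349). The difference between these 2 effects was -0.07 with a 95% interval of -1.45 to 1.31. The wildtype call was lost without rat 13, 17, 21, 25, 14, 18 or 22, with changes of -1.92 to -1.54, and with normexp correction all 3 changes, -0.48 over both genotypes (adjusted p = 0.000347), -0.57 in Pirc and -0.39 in wildtype rats, were under the 2-fold minimum.

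The Cyp2d4 probe read -0.50, -0.27, 0.18 and -0.48 in untreated wildtype rats, -0.76, -0.84, -0.73 and -0.28 in DSS-treated wildtype rats, -0.32, -0.83, -0.92 and -1.29 in untreated Pirc rats, and -2.19, -1.67, -3.01 and -1.39 in DSS-treated Pirc rats. DSS-treated Pirc rats were below all other rats. Cyp2d4 fell with DSS in Pirc rats (-1.23, SE 0.30, adjusted p = 0.0143), a call lost without rat 11 or 20, with -1.05 and -0.91, and was lower in Pirc than in wildtype rats under DSS (-1.41, SE 0.30, adjusted p = 0.00701).

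Cyp2d1 showed 3.36, 2.96, 3.18 and 3.04 in untreated wildtype rats, 2.99, 2.91, 2.83 and 3.43 in DSS-treated wildtype rats, 3.08, 2.85, 2.91 and 2.75 in untreated Pirc rats, and 2.20, 2.61, 1.39 and 2.71 in DSS-treated Pirc rats. Cyp2d5 showed 3.49, 3.16, 3.33 and 3.14 in untreated wildtype rats, 3.17, 3.11, 2.95 and 3.60 in DSS-treated wildtype rats, 3.18, 3.05, 2.997 and 2.84 in untreated Pirc rats, and 2.37, 2.75, 1.52 and 2.84 in DSS-treated Pirc rats. Rat 20 was lowest for both genes. Neither was called, and under DSS both were lower in Pirc than in wildtype rats by adjusted p, Cyp2d1 by -0.82 (adjusted p = 0.029) and Cyp2d5 by -0.84 (adjusted p = 0.0263). Over both treatments the Pirc differences were -0.53 and -0.55. The 2 neighbours thus gave nearly equal differences, and whether each probe reads only its own gene was not tested. Their windows, at chr7:115793431-115793680 for Cyp2d1 and chr7:115784488-115784737 for Cyp2d5, both on the minus strand, are shown because they align over 215 bases with 93.5% identity.
Cyp2d1: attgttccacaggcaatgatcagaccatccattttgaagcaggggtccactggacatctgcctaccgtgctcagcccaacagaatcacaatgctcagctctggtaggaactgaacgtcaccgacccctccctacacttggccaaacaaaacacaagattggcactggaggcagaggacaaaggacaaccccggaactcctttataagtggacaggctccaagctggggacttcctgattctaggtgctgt
Cyp2d5: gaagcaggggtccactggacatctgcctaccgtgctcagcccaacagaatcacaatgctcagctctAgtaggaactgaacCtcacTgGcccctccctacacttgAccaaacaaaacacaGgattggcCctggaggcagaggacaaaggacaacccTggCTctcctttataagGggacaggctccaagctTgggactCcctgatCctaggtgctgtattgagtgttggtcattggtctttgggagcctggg
In capitals are the 14 aligned bases of the Cyp2d5 window that differ from Cyp2d1.

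Cyp2f4, a pulmonary enzyme that oxidises naphthalene in Clara cells, measured 1.43, 2.002, 2.05 and 1.64 in untreated wildtype rats, 0.23, 1.01, 2.15 and 0.68 in DSS-treated wildtype rats, 2.01, 1.66, 1.38 and 1.34 in untreated Pirc rats, and 0.18, -0.10, -0.04 and 1.16 in DSS-treated Pirc rats. All DSS-treated Pirc rats were below all untreated Pirc rats, and the wildtype groups overlapped because rat 22 had 2.15. Cyp2f4 fell with DSS in Pirc rats (-1.30, SE 0.36, adjusted p = 0.026) and over both genotypes (-1.03, SE 0.26, adjusted p = 0.0113). The first call was lost without rat 11, 15, 12, 16 or 20, with -1.28 to -1.17, and the second without rat 11, 16, 20, 17, 21, 14 or 26, with -0.99 to -0.90. Cyp2t1 measured 0.96, 0.84, 1.11 and 1.23 in untreated wildtype rats, 0.72, 1.28, 1.01 and 1.46 in DSS-treated wildtype rats, 1.14, 1.11, 1.29 and 1.14 in untreated Pirc rats, and 0.95, 1.59, 0.25 and 0.77 in DSS-treated Pirc rats. Its groups overlapped, and it was not called. Cyp20a1, an orphan P450 placed with this class and named after its values were seen, was higher in Pirc rats over both treatments by 0.66 (SE 0.11, adjusted p = 0.00183) without reaching 2-fold.

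The epoxygenases of subfamilies 2C and 2J convert arachidonic acid to epoxides. Of 10 measured, 3 passed the detection rule, and Cyp2j4 and Cyp2j3 were called lower in Pirc than in wildtype rats under DSS, while Cyp2c11 was not called. The Cyp2j4 values were 3.46, 3.37, 3.69 and 3.19 in untreated wildtype rats, 4.02, 3.71, 3.66 and 3.41 in DSS-treated wildtype rats, 3.23, 3.10, 2.85 and 2.35 in untreated Pirc rats, and 1.62, 1.53, 1.10 and 2.72 in DSS-treated Pirc rats. The Cyp2j3 values were 0.23, 0.49, 1.20 and 0.69 in untreated wildtype rats, 0.89, 0.67, 0.90 and 1.20 in DSS-treated wildtype rats, 0.55, 0.18, 0.51 and -0.23 in untreated Pirc rats, and -0.78, -0.24, -1.24 and 0.02 in DSS-treated Pirc rats. For both genes DSS-treated Pirc rats were below all wildtype rats, and DSS-treated and untreated wildtype rats overlapped. Under DSS Cyp2j4 was 3.89-fold lower in Pirc rats (-1.96, SE 0.29, adjusted p = 0.00103) and Cyp2j3 2.78-fold lower (-1.48, SE 0.27, adjusted p = 0.00356), and the second probe of each gave -1.95 and -1.44. Cyp2j4 was also lower over both treatments (-1.25, SE 0.20, adjusted p = 0.00199) and fell with DSS in Pirc rats (-1.14, SE 0.29, adjusted p = 0.0158), the latter lost without rat 11, 15 or 20, with -1.07 to -0.93. In wildtype rats the DSS difference was 0.27 for each gene, with adjusted p of 0.737 and 0.727. The differences between the DSS effects, -1.42 for Cyp2j4 and -1.07 for Cyp2j3, did not pass (adjusted p = 0.255 and 0.344). The third member of this stretch of chromosome 5, Cyp2j10, had -6.72, -6.24, -6.20 and -7.53 in untreated wildtype rats, -6.54, -6.86, -6.59 and -6.73 in DSS-treated wildtype rats, -6.08, -6.55, -6.50 and -6.95 in untreated Pirc rats, and -7.19, -7.64, -6.74 and -7.29 in DSS-treated Pirc rats. It was above background on 11 of 16 arrays but on all 4 of no group, and was not called, except lower with DSS in Pirc rats after quantile normalization (-1.06, adjusted p = 0.0344). The 4 epoxide hydrolases, which open such epoxides, had 1 higher (Ephx3, 1.16, adjusted p = 0.0113) and none lower with DSS over both genotypes. Of all probes 10.2% were higher and 6.99% lower by adjusted p there.

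**Figure D3:**
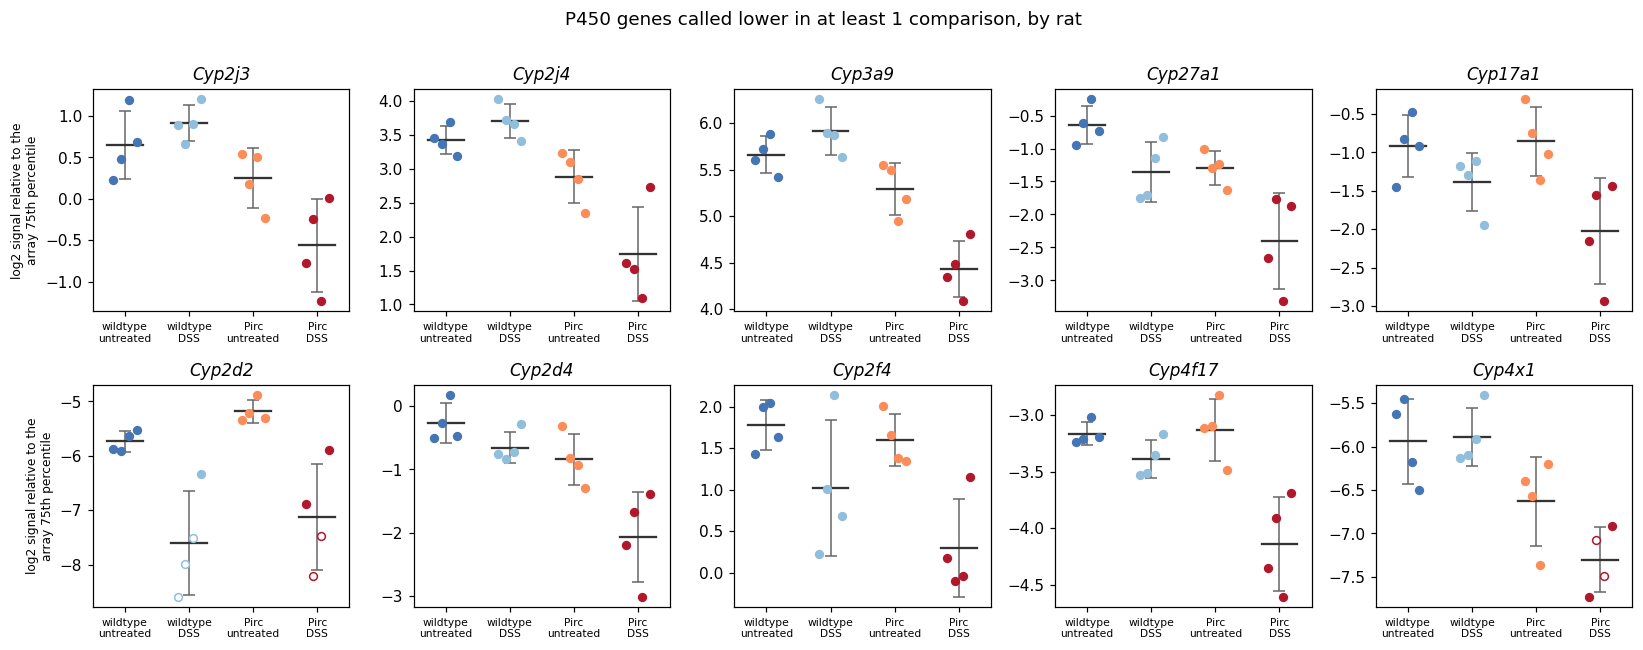
Log2 signal relative to the array 75th percentile (y axis) in each of the 4 rats of the 4 groups (x axis) for the 10 P450 genes called lower in at least 1 comparison. Bars are group means with SD, and open points are arrays on which the probe was not well above background. DSS-treated Pirc rats had the lowest mean for 9 of the 10 genes, the exception being Cyp2d2, which was low in DSS-treated rats of both genotypes.

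Subfamily 3A, the steroid and drug hydroxylases under control of the pregnane X receptor, had 3 of 5 members above background. Cyp3a9, an enzyme of rat intestine and liver, was called lower in Pirc than in wildtype rats under DSS. Its values were 5.61, 5.73, 5.89 and 5.42 in untreated wildtype rats, 6.26, 5.89, 5.87 and 5.64 in DSS-treated wildtype rats, 5.55, 5.50, 4.95 and 5.19 in untreated Pirc rats, and 4.35, 4.49, 4.09 and 4.81 in DSS-treated Pirc rats. The 4 DSS-treated Pirc rats were below all other rats, and the 4 DSS-treated wildtype rats overlapped the untreated ones. Under DSS Cyp3a9 was 2.80-fold lower in Pirc rats (-1.48, SE 0.19, adjusted p = 0.000432), and it was lower with DSS in Pirc rats by adjusted p (-0.86, SE 0.19, adjusted p = 0.00662). In DSS-treated wildtype rats the difference was 0.25 (SE 0.19, adjusted p = 0.58). The difference between the DSS effects was -1.12 (SE 0.27, adjusted p = 0.16). Cyp3a62 and Cyp3a18, named after their values were seen, passed by adjusted p alone, Cyp3a62 at -0.94 for Pirc under DSS (adjusted p = 0.0108) and Cyp3a18 at -0.95 for DSS over both genotypes (adjusted p = 0.0209). Cyp3a18 was called there after quantile normalization (-1.15, adjusted p = 0.00521), and with DSS in Pirc rats after quantile normalization (-1.31, adjusted p = 0.0207) and with dim probes left out (-1.10, adjusted p = 0.04). The Cyp3a9 window, at chr12:21960161-21960410 on the minus strand, is shown because it is the other member window with TGACTCA, in capitals on each strand.
Cyp3a9: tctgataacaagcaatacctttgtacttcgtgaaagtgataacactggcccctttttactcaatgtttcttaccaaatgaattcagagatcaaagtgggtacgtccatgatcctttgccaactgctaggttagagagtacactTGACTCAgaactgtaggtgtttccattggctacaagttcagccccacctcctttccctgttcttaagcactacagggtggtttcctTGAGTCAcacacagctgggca

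Family 4 holds the fatty acid hydroxylases, which act on arachidonic acid, leukotrienes and other lipids, and numbered 14 members, 10 of them above background. Cyp4f1, which hydroxylates leukotrienes, was the one called higher, and Cyp4f17 and Cyp4x1 were called lower. Cyp4f1 measured -3.62, -5.71, -6.08 and -4.81 in untreated wildtype rats, -6.05, -6.36, -6.60 and -6.25 in DSS-treated wildtype rats, -5.26, -4.22, -4.99 and -5.84 in untreated Pirc rats, and -4.94, 0.07, -3.56 and -4.78 in DSS-treated Pirc rats. The DSS-treated Pirc rats were above all DSS-treated wildtype rats, with rat 16 at 0.07 far above the other 3, and overlapped both untreated groups. The Pirc effect under DSS was 3.01 (SE 0.86, adjusted p = 0.0263), or 1.89 without rat 16 and 1.52 (adjusted p = 0.0935) with normexp correction. The call was also lost with only the compared groups in the fit, and without rat 20, 14, 18 or 22, with changes of 2.92 to 3.099. The DSS differences, 1.78 in Pirc and -1.26 in wildtype rats, did not pass, and the difference between them was 3.03 (SE 1.22, adjusted p = 0.397). The Cyp4f1 window, at chr7:12672554-12672803 on the minus strand, is shown for its GCGTG match, in capitals as the reverse complement.
Cyp4f1: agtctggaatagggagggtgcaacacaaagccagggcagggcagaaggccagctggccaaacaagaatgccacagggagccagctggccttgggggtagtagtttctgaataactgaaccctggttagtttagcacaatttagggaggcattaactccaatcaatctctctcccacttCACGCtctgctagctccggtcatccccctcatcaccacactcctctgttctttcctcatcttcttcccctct
Cyp4f17 values were -3.24, -3.22, -3.02 and -3.19 in untreated wildtype rats, -3.53, -3.51, -3.35 and -3.17 in DSS-treated wildtype rats, -3.12, -3.09, -2.82 and -3.49 in untreated Pirc rats, and -4.36, -3.91, -4.61 and -3.69 in DSS-treated Pirc rats. DSS-treated Pirc rats were below all other rats. Cyp4f17 fell with DSS in Pirc rats (-1.01, SE 0.19, adjusted p = 0.00286), 2.01-fold, a call lost without rat 15, 19, 12 or 20, with changes of -0.997 to -0.85, with median scaling and with normexp correction (-0.77), although the probe was above background on all 16 arrays. Cyp4x1 had -5.63, -5.45, -6.18 and -6.50 in untreated wildtype rats, -6.13, -6.10, -5.91 and -5.40 in DSS-treated wildtype rats, -6.39, -6.56, -7.36 and -6.20 in untreated Pirc rats, and -7.73, -7.08, -7.49 and -6.91 in DSS-treated Pirc rats. Under DSS the 2 genotypes did not overlap, and Cyp4x1 was lower in Pirc rats (-1.41, SE 0.29, adjusted p = 0.00573). Only 2 of the 4 DSS-treated Pirc arrays were above background for it, so the size of that difference is uncertain. Over both treatments the Pirc effect was -1.05 (SE 0.21, adjusted p = 0.00442), lost without rat 19, 12, 13, 17 or 26, with -0.998 to -0.93, and with the common floor (-0.97), and with normexp correction both effects were lost, at -0.29 under DSS and -0.27 over both treatments.

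Cyp4f5, Cyp4f6 and Cyp4a8 were not called and are given because the naming rule took 6 further members by mean signal, which orders no genes by level, and Cyp4f5 had 2.64, 2.13, 2.97 and 2.37 in untreated wildtype rats, 3.08, 2.88, 2.995 and 2.61 in DSS-treated wildtype rats, 2.26, 2.22, 2.38 and 2.30 in untreated Pirc rats, and 2.26, 2.62, 1.49 and 2.66 in DSS-treated Pirc rats. Cyp4f6 had 1.32, 1.26, 1.37 and 1.20 in untreated wildtype rats, 1.30, 1.45, 1.27 and 1.25 in DSS-treated wildtype rats, 1.33, 1.18, 1.01 and 1.18 in untreated Pirc rats, and 0.93, 1.28, 0.65 and 0.95 in DSS-treated Pirc rats. Cyp4a8, a fatty acid omega-hydroxylase, had 2.64, 1.28, 1.65 and 2.46 in untreated wildtype rats, 1.46, 1.25, 1.48 and 1.91 in DSS-treated wildtype rats, 1.29, 1.72, 1.72 and 2.25 in untreated Pirc rats, and 1.28, 1.98, 1.76 and 1.85 in DSS-treated Pirc rats. Groups overlapped for all of these, apart from DSS-treated wildtype rats lying above untreated Pirc rats for Cyp4f5. With DSS over both genotypes the changes were 0.17, -0.10 and -0.26, with 95% intervals of -0.19 to 0.52, -0.29 to 0.10 and -0.69 to 0.18. Cyp4v3 was read from a probe above background on 2 arrays, and its other probe, above background on 11, gave -0.54 with DSS over both genotypes (adjusted p = 0.00373).

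**Figure D4:**
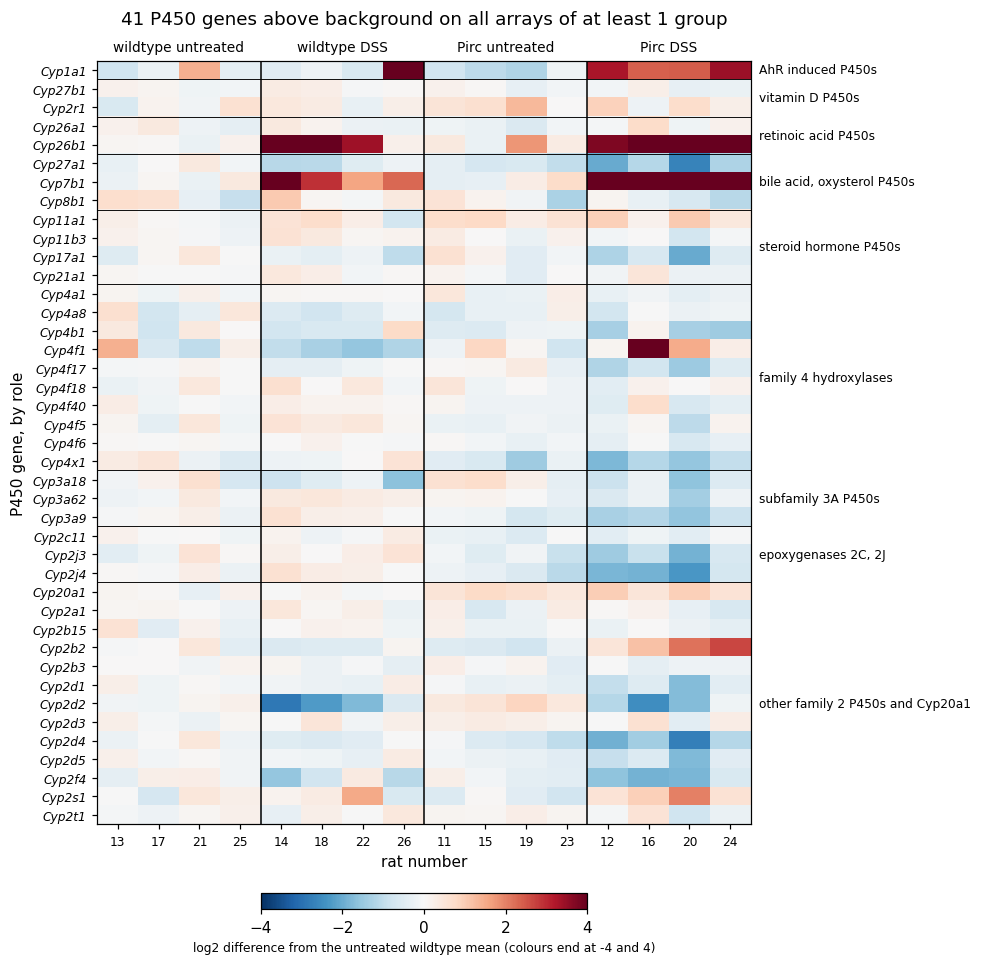
Log2 difference from the mean of the untreated wildtype rats for the 41 P450 genes above background on all arrays of at least 1 group (rows, by role) in the 16 rats (columns, by group), with colours ending at -4 and 4. Red cells in the DSS columns include Cyp7b1 in both genotypes, Cyp26b1 in Pirc rats and in wildtype rats except rat 26, and Cyp1a1 in Pirc rats and wildtype rat 26. They also include Cyp4f1 in Pirc rat 16 and Cyp2b2 in Pirc rats 20 and 24. Blue cells are most frequent in the columns of DSS-treated Pirc rats.

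The vitamin D P450s, Cyp27b1, Cyp2r1 and Cyp24a1, which activate and degrade the vitamin, had no called member, and Cyp24a1 was above background on no array. Of the 26 members that did not pass the detection rule, 12 were above background on no array and 14 on some, and for these a change between groups could not be measured well. They include Cyp2e1, Cyp2g1 and 7 of the 10 members of subfamilies 2C and 2J.

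Genes on which P450s depend were read beside them. A list of 9 genes held electron donors and the heme-binding proteins Pgrmc1 and Pgrmc2. None was higher and 4 were lower with DSS over both genotypes by adjusted p, where 10.2% of all probes were higher and 6.99% lower. The lower ones were Cyb5a, cytochrome b5, by -0.47 (adjusted p = 0.00545), its reductase Cyb5r3 by -0.46 (adjusted p = 0.0218) and the heme-binding membrane proteins Pgrmc1 by -0.37 (adjusted p = 0.00792) and Pgrmc2 by -0.42 (adjusted p = 0.0034). P450 oxidoreductase, Por, did not pass there (-0.04, adjusted p = 0.843), nor did the ferredoxins Fdx1 and Fdx2 or their reductase Fdxr. For the Pirc effect over both treatments, 2 of the 9 were higher (9.26% of all probes) and 3 lower (8.27%). Por was lower in that comparison (-0.43, adjusted p = 0.0143) and Fdx2 higher (0.68, adjusted p = 0.00294). Of 18 receptors that control P450 genes, 2 were higher and 4 lower. The constitutive androstane receptor Nr1i3 was lower by -0.86 (adjusted p = 0.00667), the bile acid receptor Nr1h4 by -0.84 (adjusted p = 0.0114) and Nr5a2 by -0.75 (adjusted p = 0.0196), while the aryl hydrocarbon receptor repressor Ahrr was higher by 0.85 (adjusted p = 0.0119). The pregnane X receptor Nr1i2 did not pass (-0.31, adjusted p = 0.21). For the Pirc effect under DSS, 6 of the 18 receptors were lower (8.76% of all probes) and 0 higher (9.47%). Among the lower ones was Nr1i3 (-1.47, adjusted p = 0.0037). With DSS over both genotypes, heme genes were also read. Of 13 genes of heme synthesis and breakdown, 1 was higher and 3 lower, the higher one being heme oxygenase Hmox1 at 1.04 (adjusted p = 0.0222). Of the 3 P450s named outside the pattern, Cyp51, Ptgis and Tbxas1, none passed by adjusted p with DSS over both genotypes. Tbxas1 was higher in Pirc than in wildtype rats under DSS (1.21, adjusted p = 0.0215), where 9.47% of all probes were higher. Over both treatments its Pirc effect was 0.97 (adjusted p = 0.0125), with 9.26% of all probes higher. Cyp51 and Ptgis passed in neither comparison.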

How the data were processed

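RNA of 16 rats was labelled with Cy3 and hybridised to single-colour Agilent arrays of 62976 spots, and per the file headers the deposited intensity values (gProcessedSignal, and the median foreground and background signals) came from Agilent Feature Extraction 10.7.3.1, which had already subtracted background. The authors' processing notes name Partek, and the genome build was not given in the sources used here. The deposited flags for spots above background, saturated or outlying were used as given.

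Control spots were left out, spots of a probe were averaged on the log2 scale without outlier-flagged spots (25 probe values with every spot flagged were kept), and the 75th percentile of the array was subtracted. A probe was above background on an array where at least 50% of its spots were flagged so. Of 30367 probes, 18006 were named by accession through RefSeq (GRCr8), giving 15159 symbols, and 12361 stayed unnamed. Of the 67 members, 58 had 1 probe and 9 had several. limma 3.58.1 in R 4.3.3 fitted 4 group means over all arrays, with Benjamini-Hochberg adjustment over all probes. Where 1 side of a comparison was above background on every array and the other on none, a change is given as a lower bound ("at least"). It is the mean of the measured side over the higher, per array, of the dim signal and the lowest signal above background. That floor is the lowest of any probe on the array, so the bound holds only for it. The higher common floor gave smaller changes for Cyp1a1. The number of rats limits the precision, and each rat was a separate animal.

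Values in every rat are given for the members above background that were called, for the 6 others with the highest mean signal (a choice of what to describe, not a comparison of levels), and for members at the detection threshold, 24 in all. The members and lists were chosen with earlier results of these data known. Alternatives were quantile normalization, normexp (offset 50) on the median signal with quantile normalization, another scaling, a common floor, a filter on dim probes, flagged spots kept, averaged probes, slide and array row as blocks, only the compared groups, no minimum change, and each rat left out. The Cyp2c55, Cyp2w1 and Cyp19a1 genes, among others, were not analysed here.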

Additional observations from a re-analysis of the deposited data

Results flagged for a closer look

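In DSS-treated wildtype rats, the Cyp1a1 value of rat 26 was -3.66, against -8.96 to -8.56 in the other 3 rats, a gap that made it stand apart by Dixon's criterion. The Cyp2b2 value of the same rat was -4.50, against -5.19 to -5.11. Of 96 sets of 4 rats checked this way, these 2 were found, where chance gives about 1 in 20, or 4.8.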

How the results depend on the processing

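Of 36 called values of single members, 34 kept their call after quantile normalization, 34 with median scaling, 36 with the slide or slide and row as blocks, 35 with flagged spots kept, 35 with probes averaged, 28 with the common floor, 27 with only the compared groups and 15 with normexp. None of these 36 changed sign under any alternative run. Called members with normexp numbered 1 for DSS over both genotypes, 8 for DSS in Pirc rats, 0 for the wildtype DSS effect, 2 for Pirc against wildtype over both treatments and 5 for Pirc under DSS, and Cyp1a1, Cyp1b1, Cyp27a1, Cyp2d2, Cyp4f1, Cyp4f17 and Cyp4x1 lost every call; the cause was not tested. With the common floor, DSS in wildtype rats had 1, Pirc against wildtype over both treatments 1 and the difference between the DSS effects 1, and the calls ended were those of Cyp1a1 and Cyp1b1 over both genotypes, Cyp1a1 in Pirc rats, Cyp26b1 and Cyp7b1 in wildtype rats, and Cyp1b1, Cyp4x1 and Cyp7b1 for Pirc over treatments. That difference also had 1 (Cyp1b1) after quantile normalization, with the slide as a block and with slide and row as blocks. With only the compared groups, fewer arrays entered each fit, DSS in wildtype rats had 1, and the calls of Cyp17a1, Cyp27a1, Cyp2d4 and Cyp2j4 for DSS in Pirc rats of Cyp26b1 and Cyp2d2 in wildtype rats and of Cyp27a1, Cyp4f1 and Cyp7b1 for Pirc under DSS were lost. Calls gained, beside those of Cyp1b1, Cyp2j10 and Cyp3a18, were Cyp4x1 for DSS in Pirc rats after quantile normalization (-1.01), Cyp2d4 for Pirc over treatments after quantile normalization (-1.02) and median scaling (-1.01), and Cyp3a9 there with normexp (-1.01). With no minimum change, 13 members passed for DSS over both genotypes and 12 for Pirc over both treatments. Leaving out 1 rat gave 5 to 7 calls for DSS over both genotypes, 6 to 14 for DSS in Pirc rats, 1 to 3 for the wildtype DSS effect, 2 to 6 for Pirc against wildtype over both treatments, 0 for Pirc in untreated rats, 8 to 12 for Pirc under DSS and 0 to 1 for the difference. Without rat 23, DSS in Pirc rats had 14 calls and without rat 26 also 14. Among uncalled values, leaving out 1 rat moved Cyp4a8 for Pirc over both treatments between -0.16 and 0.07, Cyp2t1 for DSS over both genotypes between -0.21 and 0.0084, and Cyp2t1 for Pirc over both treatments between -0.17 and 0.06, with positive values of 0.042, 0.039, 0.072, 0.041 and 0.030 for Cyp4a8 and 0.058 and 0.0088 for Cyp2t1. By rat number no paired analysis was possible because the groups share none, but each row of a slide held 1 rat of every group, and slide and row as blocks changed only the call for the Cyp1b1 difference. Dim probes limit Cyp1a1, Cyp1b1, Cyp7b1 and Cyp26b1, whose untreated arrays were mostly not above background. They also limit Cyp2d2 and Cyp4x1, some of whose DSS-treated arrays were not above background.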
